A study of Mus musculus with 2 samples.

Results

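The Cyp2a and Cyp2b genes described here are the 7 cytochrome P450 genes Cyp2a4, Cyp2a5, Cyp2a12, Cyp2a22, Cyp2b9, Cyp2b10 and Cyp2b13, taken by gene symbol from the 15526 genes of a table of mouse liver RNA sequencing. All 7 were found. Each of the 2 libraries held liver RNA mixed from 3 female NOG-TKm30 mice 22 weeks old. The control pool had received acetoaceto-o-toluidide (AAOT) at 0% and the AAOT pool at 0.3%, in both cases for 4 weeks. AAOT is an acetoacetyl amide made from o-toluidine, an aromatic amine. The sources used here give no route for it. All mice, controls included, carried a transgene for a mutant herpes simplex virus thymidine kinase (HSVtk mutant clone 30), driven by the mouse transthyretin enhancer and promoter, which is active in hepatocytes. The genotype is given as NOG-TKm30 and the strain background as C57BL, a discrepancy that was left as it stands. With 1 library per group there is no replicate error and no test. Each fold below is that of 2 pools, and the interval after it is an exact 95% interval of a ratio of 2 read counts, which covers counting error only.

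P450 enzymes of the CYP2A and CYP2B subfamilies oxidise drugs, steroids and other small lipophilic compounds in the endoplasmic reticulum, with electrons from the reductase encoded by Por. In mouse liver Cyp2b10 is the classical target of the constitutive androstane receptor (CAR, encoded by Nr1i3), a nuclear receptor that enters the nucleus in response to phenobarbital and related compounds. Cyp2a5 is the mouse coumarin 7-hydroxylase and also oxidises nicotine and bilirubin, Cyp2a4 is a steroid 15-alpha-hydroxylase, and Cyp2a12 is a steroid 7-alpha-hydroxylase that also hydroxylates secondary bile acids. Cyp2a4, Cyp2b9 and Cyp2b13 are known as female-predominant liver genes under growth hormone control.

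The reads recovered for the 15526 genes summed to 18801241 (control pool) and 16528533 (AAOT pool), and percentages of a pool's reads refer to these sums. Values are in CPM, counts scaled to library size. Of 9 hepatocyte markers all 9 were detected, at sums of 122265 and 102786 CPM in the control and AAOT pools, and Alb alone took 5.70% and 5.15% of the reads. Other liver cell types gave far lower sums in the control and AAOT pools, namely 302 and 324 CPM for 8 Kupffer cell and macrophage markers, 387 and 382 CPM for 7 sinusoidal endothelial markers, 541 and 471 CPM for 7 stellate cell markers, 45.5 and 35.9 CPM for 6 cholangiocyte markers and 321 and 352 CPM for 6 erythroid markers. Markers of lymphocytes and NK cells, of neutrophils and of pancreas each summed to 1.08 CPM or less in both pools, and of 4 adipocyte markers 0 were among the genes analysed. In these lists 0 genes above the expression floor used below passed 2-fold. Under that floor, the erythroid marker Hbb-bs had 0 reads without AAOT and 102 with it, or 6.10 CPM. The erythroid marker Hbb-bt, above the floor, had 218 and 225 reads. Why Hbb-bs differed was not tested. Because whole liver was measured, fewer cells of a type and less RNA per cell cannot be told apart.

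The 7 genes lie within 1139 kb of chromosome 7, from 25897658 to 27036818 on GRCm38, have 9 exons each and fall by sequence into 3 pairs of close relatives and Cyp2b10. The coding sequences of Cyp2a4 and Cyp2a5 are 98.5% identical, those of Cyp2a12 and Cyp2a22 97.0% and those of Cyp2b9 and Cyp2b13 92.7%. Cyp2b10 is 87.7% identical to Cyp2b9 and 88.7% to Cyp2b13. How well a short read tells these genes apart decides how far a single value can be trusted, so the 60 coding bases with the most differences are shown for each pair and for Cyp2b10 against Cyp2b9, with the differing bases in capitals and positions counted from 1 at the A of the start codon. Cyp2a5 and Cyp2a4 differ at 23 of 1485 bases, and their densest stretch, bases 596 to 655, holds 4 differences (G603T, C607A, T625C and C655G, with the Cyp2a5 base first).
Cyp2a5: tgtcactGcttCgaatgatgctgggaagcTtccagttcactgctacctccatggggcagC
Cyp2a4: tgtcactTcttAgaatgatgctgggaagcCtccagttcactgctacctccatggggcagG
The change T625C lies in codon 209, which is known to decide between coumarin and steroid hydroxylation in this pair of enzymes. Cyp2a12 and Cyp2a22 differ at 45 of 1479 bases, with 6 differences in bases 1277 to 1336.
Cyp2a12: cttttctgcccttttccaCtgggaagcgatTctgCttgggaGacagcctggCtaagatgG
Cyp2a22: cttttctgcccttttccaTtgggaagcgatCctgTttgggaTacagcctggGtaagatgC
Cyp2b9 and Cyp2b13 differ at 108 of 1476 bases, with 13 differences in bases 1056 to 1115.
Cyp2b9: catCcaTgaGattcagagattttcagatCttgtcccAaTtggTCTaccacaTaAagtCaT
Cyp2b13: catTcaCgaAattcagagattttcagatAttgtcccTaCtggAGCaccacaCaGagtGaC
Cyp2b10 and Cyp2b9 differ at 181 of 1476 bases, with 20 differences in bases 283 to 342.
Cyp2b10: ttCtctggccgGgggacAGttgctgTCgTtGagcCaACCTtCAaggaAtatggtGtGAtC
Cyp2b9: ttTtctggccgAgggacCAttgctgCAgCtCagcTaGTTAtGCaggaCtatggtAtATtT
The longest run without a difference was 216 bases for Cyp2a5 and Cyp2a4, 206 bases for Cyp2a12 and Cyp2a22, 113 bases for Cyp2b9 and Cyp2b13 and 55 bases for Cyp2b10 and Cyp2b9.

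Over the whole GENCODE transcript, 90.3% of the 50-base stretches of Cyp2b10 occur in no other gene, against 88.8% for Cyp2b9, 74.3% for Cyp2a22, 72.7% for Cyp2b13, 72.5% for Cyp2a12, 62.0% for Cyp2a4 and 59.2% for Cyp2a5. Of the stretches of Cyp2a4, 36.1% also occur in Cyp2a5, and of those of Cyp2a22, 25.7% also occur in Cyp2a12. Of the stretches of Cyp2b13, 13.8% also occur in the gene model Gm45225 and 10.8% in Cyp2b9. Only 0.536% of the stretches of Cyp2b10 occur in Cyp2b9 and 7.82% in Cyp2b13. With 100-base stretches the unique share was 88.8% for Cyp2a4, 85.6% for Cyp2a5, 93.2% for Cyp2a12, 93.6% for Cyp2a22 and 100% for Cyp2b10. The sources used here give no read length, so the values of Cyp2a4 and Cyp2a5, of Cyp2a12 and Cyp2a22 and of Cyp2b13 are uncertain to the extent that counting could split their reads, and sums of each pair are given as well.

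Up to 200 bases before each start site are shown because close relatives in the coding sequence are not equally close here. They are read from RefSeq (GRCm38), where all 7 genes matched. For Cyp2b9, Cyp2b13 and Cyp2a22 the annotated gene begins 59, 107 and 27 bases before the start site used, and these bases are left out. Capitals mark matches that lie wholly in the printed bases, on either strand, to the motifs searched, which were the nuclear receptor half-site AGGTCA, the direct repeat of 2 copies of AGGTCA with 4 bases between them that CAR and its partner bind, the TATA box TATAAA, the core GCGTG of the xenobiotic response element bound by the aryl hydrocarbon receptor, the core TGACNNNGC of the antioxidant response element, the C/EBP motif TTGCNNCAA, the D-box TTATGTAA, the HNF1 half-site GTTAAT and the CCAAT box CCAAT.
Cyp2b10, chr7:25897458-25897657, plus strand: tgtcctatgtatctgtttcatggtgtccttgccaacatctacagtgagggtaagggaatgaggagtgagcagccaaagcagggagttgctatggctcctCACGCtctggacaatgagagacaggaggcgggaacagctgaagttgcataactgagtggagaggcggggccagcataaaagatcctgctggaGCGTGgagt
Cyp2b9, chr7:26173209-26173349, plus strand: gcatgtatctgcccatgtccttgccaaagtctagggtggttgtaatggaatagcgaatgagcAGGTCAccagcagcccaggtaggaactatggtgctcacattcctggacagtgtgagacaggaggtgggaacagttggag
Cyp2b13, chr7:26061295-26061387, plus strand: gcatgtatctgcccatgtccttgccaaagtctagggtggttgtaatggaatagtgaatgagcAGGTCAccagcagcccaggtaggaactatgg
Cyp2a5, chr7:26835139-26835338, plus strand: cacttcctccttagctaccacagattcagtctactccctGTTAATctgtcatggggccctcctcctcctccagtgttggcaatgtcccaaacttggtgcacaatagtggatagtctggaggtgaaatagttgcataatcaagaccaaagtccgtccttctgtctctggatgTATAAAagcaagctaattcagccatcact
Cyp2a4, chr7:26306992-26307191, plus strand: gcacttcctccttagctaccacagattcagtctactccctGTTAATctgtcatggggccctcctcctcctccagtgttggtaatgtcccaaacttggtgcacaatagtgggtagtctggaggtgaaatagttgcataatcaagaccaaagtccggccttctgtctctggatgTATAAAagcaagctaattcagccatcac
Cyp2a22, chr7:26939414-26939586, minus strand: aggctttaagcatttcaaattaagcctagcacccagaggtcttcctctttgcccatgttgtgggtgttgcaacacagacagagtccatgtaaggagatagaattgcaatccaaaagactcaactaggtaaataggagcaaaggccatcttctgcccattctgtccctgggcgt
Cyp2a12, chr7:27028890-27029089, plus strand: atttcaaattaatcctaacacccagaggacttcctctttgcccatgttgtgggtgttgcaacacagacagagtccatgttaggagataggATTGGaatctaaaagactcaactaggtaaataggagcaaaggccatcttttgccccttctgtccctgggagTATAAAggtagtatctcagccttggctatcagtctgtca
Over 300 bases (250 before the start site and 50 after it) the promoters of Cyp2b9 and Cyp2b13 were 99.3% identical, with only the differences T48C and C104T (the Cyp2b9 base first, counted from the 5′ end of the 300 bases). Those of Cyp2a4 and Cyp2a5 were 97.7% identical and those of Cyp2a12 and Cyp2a22 84.2%. The promoter of Cyp2b10 was 71.7% identical to that of Cyp2b9 and likewise to that of Cyp2b13. TATAAA was found in the 4 Cyp2a promoters (in Cyp2a22 across the end of the printed bases, so without capitals) and in none of the 3 Cyp2b promoters, and in 13.6% of 32851 RefSeq promoters of this length. GCGTG was found only in Cyp2b10 among the 7, and in 32.4% of all promoters. AGGTCA was found before the start sites of Cyp2b9 and Cyp2b13, and after them, in the part not shown, in Cyp2a4 and Cyp2a5, and in 16.3% of all promoters. GTTAAT was found in Cyp2a4 and Cyp2a5 (7.10% of all promoters), and CCAAT in Cyp2a12 and Cyp2b10 (37.4%), in Cyp2b10 after the start site. The direct repeat (0.0152% of all promoters), TGACNNNGC (12.4%), TTGCNNCAA (2.08%) and TTATGTAA (0.938%) were found in none of the 7. A match or its absence describes these 300 bases only, and elements farther from the start site were not searched.

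In the AAOT pool Cyp2b10, Cyp2a5, Cyp2a4 and Cyp2a22, or 4 of 7, exceeded the control level by 2-fold or more, and 0 of 7 were lower by that much. The other 3, Cyp2b9, Cyp2a12 and Cyp2b13, were between 1.12-fold and 1.16-fold higher. A gene was counted when log2((AAOT + 1)/(control + 1)), in CPM, was at least 1 in either direction and its average of the 2 values was 10 CPM or more, a floor that all 7 genes reached. By the same rule 60 of 7761 genes, or 0.773%, were higher and 33, or 0.425%, were lower. The median of this log2 ratio was 1.40 over the 7 genes and -0.02 over all 7761 genes, whose SD was 0.29.

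**Figure D1:**
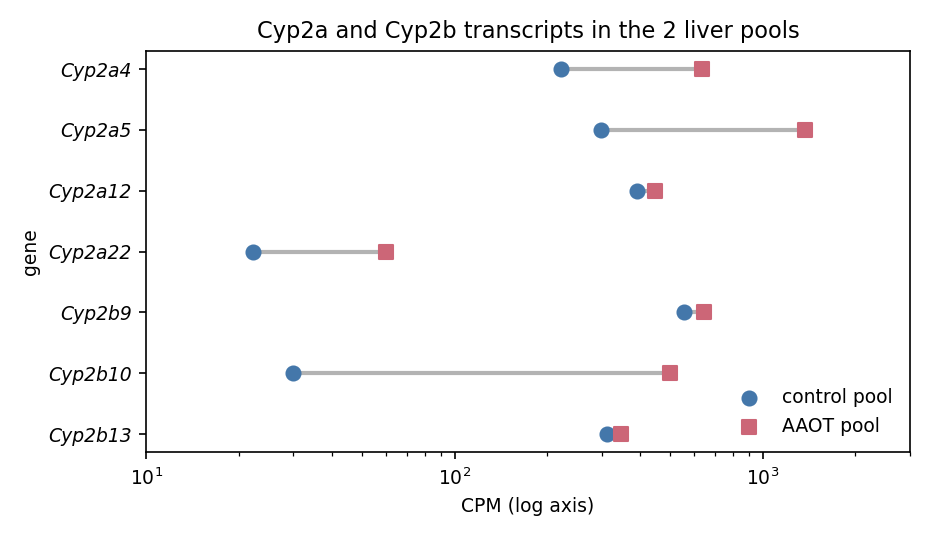
CPM of the 7 genes in the control pool (circles) and the AAOT pool (squares), on a log axis, with 1 library per pool. Cyp2b10 spans 29.8 to 501 CPM, while Cyp2a12, Cyp2b9 and Cyp2b13 show nearly touching points.

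Cyp2b10 (ENSMUSG00000030483.14, 25897658 to 25926624) had 553 reads without AAOT and 8386 with it, or 29.8 and 501 CPM. This is a 16.8-fold higher level in the AAOT pool (15.4 to 18.4) and the second-highest log2 ratio among the 7761 genes, behind the CAR target Cyp2c55. Its neighbours Cyp2b13 (ENSMUSG00000040583.8, 26061388 to 26096197) and Cyp2b9 (ENSMUSG00000040660.6, 26173350 to 26210661) were already abundant in the control pool. Cyp2b13 had 5788 and 5821 reads, at 312 CPM without AAOT and 348 CPM with it, 1.12-fold (1.08 to 1.16). Cyp2b9 had 10310 and 10793 reads, at 555 CPM and 645 CPM, 1.16-fold (1.13 to 1.19). The counting intervals of these ratios lie far below that of Cyp2b10 and overlap each other, and the share of Cyp2b13 in the reads of this pair was 36.0% (exact 95% interval 35.2 to 36.7) without AAOT and 35.0% (34.3 to 35.8) with it. The 3 Cyp2b genes summed to 897 CPM without AAOT and 1494 CPM with it, 1.67-fold (1.63 to 1.70), and without Cyp2b10 to 867 CPM and 993 CPM, 1.15-fold (1.12 to 1.17).

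Cyp2a5 (ENSMUSG00000005547.14, 26835339 to 26843264) had 5534 reads without AAOT and 23011 with it, or 298 and 1375 CPM, 4.61-fold (4.48 to 4.75). Cyp2a4 (ENSMUSG00000074254.4, 26307192 to 26315088) had 4109 and 10598 reads, or 221 and 633 CPM, 2.86-fold (2.76 to 2.97). The 2 intervals do not overlap, but they cover counting error only. They do not cover how reads shared by these nearly identical genes were divided, so whether the 2 ratios differ was not tested. The share of Cyp2a5 in the reads of the pair was 57.4% (56.4 to 58.4) without AAOT and 68.5% (68.0 to 69.0) with it. The sum of the pair, which does not depend on how reads were split between its members (reads shared with the pseudogene Cyp2a21-ps apart), was 519 CPM without AAOT and 2008 CPM with it, 3.87-fold (3.78 to 3.96).

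Cyp2a22 (ENSMUSG00000091867.2, 26931631 to 26939413, the only one of the 7 on the minus strand) was the least abundant of the Cyp2a genes. It had 411 reads without AAOT and 1002 with it, or 22.1 and 59.9 CPM, 2.71-fold (2.41 to 3.04). Its close relative Cyp2a12 (ENSMUSG00000060407.6, 27029090 to 27036818) had 7280 and 7457 reads, or 392 and 446 CPM, 1.14-fold (1.10 to 1.17). The share of Cyp2a22 in the reads of this pair was 5.34% (4.85 to 5.87) without AAOT and 11.8% (11.2 to 12.6) with it. The sum of the pair was 414 CPM without AAOT and 505 CPM with it, 1.22-fold (1.18 to 1.26), so most of the pair's reads come from the member whose value barely differed. The 4 Cyp2a genes summed to 933 CPM without AAOT and 2514 CPM with it, 2.69-fold (2.65 to 2.74).

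All 7 genes together took 0.181% of the reads of the control pool and 0.406% of those of the AAOT pool. In the plot of all genes the 4 higher members stand clear of the bulk of genes of their abundance. Ranked by log2 ratio among the 7761 genes, from the highest, they were at places 2 (Cyp2b10), 8 (Cyp2a5), 23 (Cyp2a4) and 27 (Cyp2a22). Cyp2b9, Cyp2a12 and Cyp2b13 were at places 945, 1149 and 1354.

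**Figure D2:**
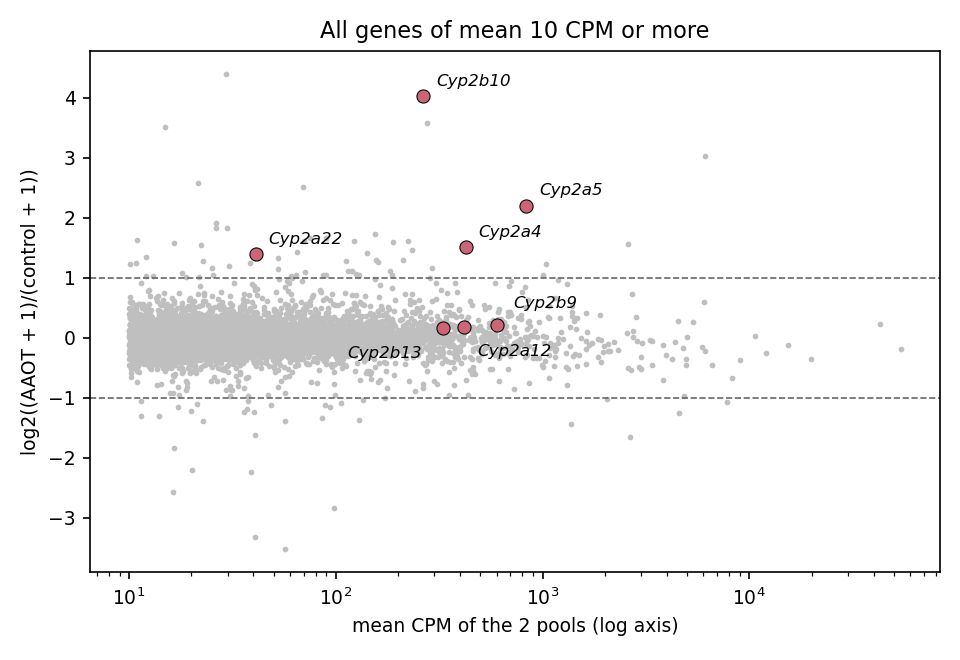
Log2 ratio of AAOT to control pool after adding 1 CPM, against mean CPM on a log axis, for the 7761 genes with a mean of at least 10 CPM (grey). The 7 Cyp2a and Cyp2b genes are in red, with 4 above the dashed line at a log2 ratio of 1 and 3 close to 0.

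Levels of different genes were compared per kilobase of the longest protein-coding transcript. In the control pool the order was Cyp2b9 at 296 CPM per kb, Cyp2a12 at 233, Cyp2b13 at 166, Cyp2a5 at 148, Cyp2a4 at 127, Cyp2b10 at 15.5 and Cyp2a22 at 12.3 CPM per kb. In the AAOT pool Cyp2a5 was first, at 683 CPM per kb, followed by Cyp2a4 at 364, Cyp2b9 at 344, Cyp2a12 at 265, Cyp2b10 at 262, Cyp2b13 at 186 and Cyp2a22 at 33.3 CPM per kb. Cyp2b9 thus passed from 29.6% to 16.1% of the summed level per kilobase of the 7 genes, while Cyp2a5 passed from 14.8% to 32.0% and Cyp2b10 from 1.56% to 12.2%. The order depends on the length used. Per kilobase of coding sequence the control order stayed as given, but in the AAOT pool Cyp2b9, at 437 CPM per coding kb, stood above Cyp2a4, at 426, and Cyp2b10, at 340, above Cyp2a12, at 301, so neither pair of neighbours can be ordered. Cyp2a12 and Cyp2a22 each have a longer annotated transcript that retains an intron, of 3457 and 3445 bases, and with that length Cyp2a12 stood below Cyp2b13, Cyp2a5 and Cyp2a4 in the control pool, at 113 CPM per kb. The sources used here do not say how reads were divided between such transcripts.

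**Figure D3:**
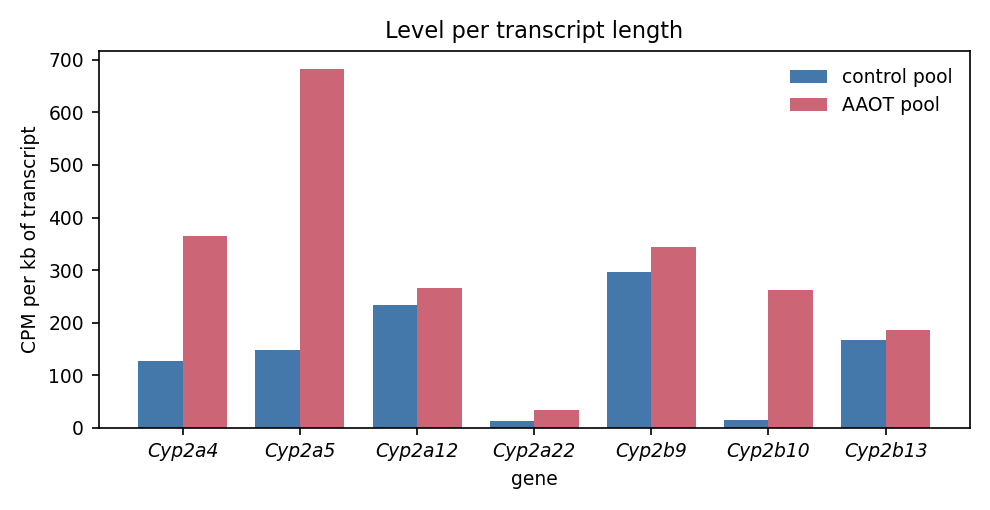
CPM per kilobase of the longest protein-coding transcript for each gene in the control pool (blue bars) and the AAOT pool (red bars), with 1 library per bar and no error. Cyp2b9 is highest in the control pool, at 296, and Cyp2a5 in the AAOT pool, at 683.

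Along the chromosome, genes past 2-fold lay on both sides of genes close to equality. From the start of Cyp2b10, at 16.8-fold, the next members were Cyp2b13 (164 kb away) and Cyp2b9 (276 kb), both close to equality, then Cyp2a4 (410 kb), at 2.86-fold, Cyp2a5 (938 kb), at 4.61-fold, Cyp2a22 (1034 kb), at 2.71-fold, and Cyp2a12 (1131 kb), at 1.14-fold. The table held 2 other genes between the outermost members. Cyp2g1, a P450 gene known from olfactory mucosa that lies next to Cyp2a5, had 82 reads without AAOT and 183 with it, or 4.42 and 10.9 CPM. That is 2.48-fold (1.90 to 3.25), with 94.2% unique 50-base stretches, but its mean was below the floor and it was not counted. Cyp2b23 had 0 reads in the control pool, where a count of 0 allows up to 3, and 4 reads in the AAOT pool.

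Genes just outside the members differed little. Cyp2f2, a periportal P450 gene with 100% unique 50-base stretches, was at 1183 CPM without AAOT and 1271 CPM with it, 1.07-fold (1.05 to 1.09). Beyond it Egln2 was at 1.04-fold (0.95 to 1.14) and Rab4b, below the floor with 127 and 158 reads, at 1.38-fold (1.09 to 1.76). On the other side Axl was at 1.11-fold (1.002 to 1.22), Hnrnpul1 at 1.01-fold (0.93 to 1.08), and Cyp2s1 had only 11 and 4 reads. Of the 6 other P450 genes listed for this stretch of the chromosome, 4 were among the genes analysed, and Cyp2f2 alone reached the floor.

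**Figure D4:**
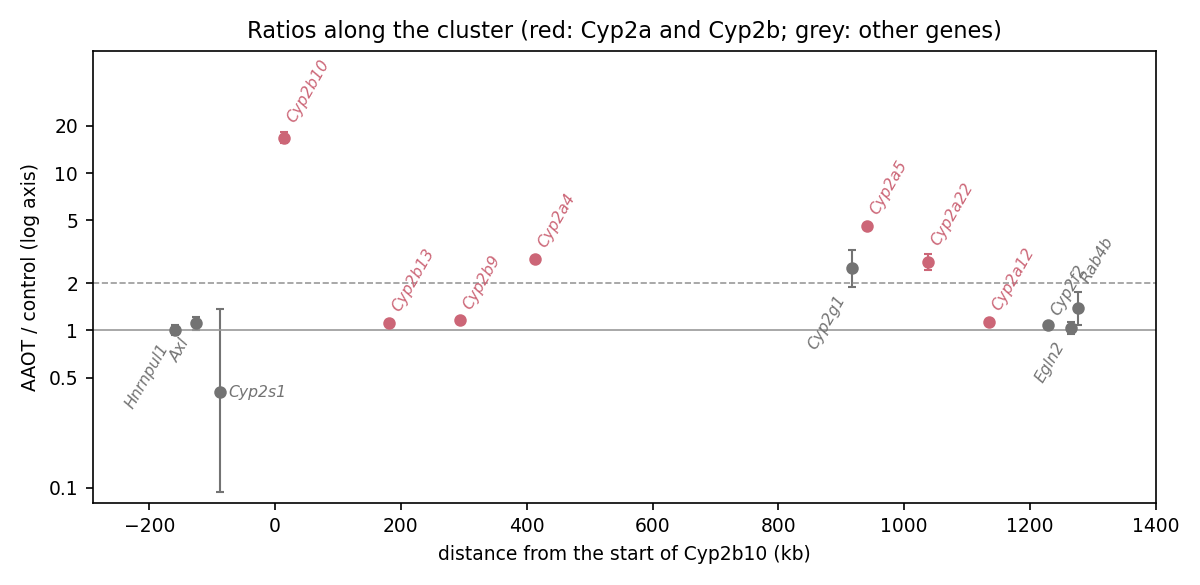
Ratio of AAOT to control pool, on a log axis, against the distance of each gene's midpoint from the start of Cyp2b10 in kb. Points are single ratios and bars are exact 95% counting intervals; Cyp2a and Cyp2b genes are red, other listed genes grey, and Cyp2b23, with 0 control reads, is left out. Cyp2b10 stands at 16.8, and Cyp2b13 and Cyp2b9, the next listed genes, near 1.

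Genes that act with or like the 7 were described by lists, which were chosen with earlier results of these data known. The receptor genes lay within 1.22-fold, with Nr1i3 (CAR) at 133 CPM without AAOT and 109 CPM with it, 1.22-fold lower (1.15 to 1.30), and Nr1i2, which encodes the related receptor PXR, at 56.1 CPM and 67.5 CPM, 1.20-fold higher (1.11 to 1.31). Of 16 genes for these receptors and their partners, all above the floor, 0 passed 2-fold and the median log2 ratio was -0.04. The lowest was Egfr, whose signalling is known to hold CAR in the cytoplasm, at 464 CPM without AAOT and 239 CPM with it, 1.95-fold lower (1.87 to 2.02). The highest was the chaperone gene Hsp90aa1, at 1.40-fold (1.33 to 1.47).

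Of 34 other CAR and PXR targets 29 reached the floor. Of these 12 passed 2-fold upwards and 0 downwards, where 0.773% and 0.425% of all 7761 genes did. In this list 27 lay above 0 and the median log2 ratio was 0.89. The highest was Cyp2c55, with 33 reads without AAOT and 959 with it, or 1.78 and 57.3 CPM, 32.2-fold (22.8 to 47.1), and the lowest Cyp3a25, at 675 CPM and 654 CPM. The other 11 were Cyp2c29, Cyp2c37, Sult2a1, Gsta2, Gstm1, Gstm2, Gstm3, Gstt3, Abcc4, Ces2c and Aldh1a7, between 2.07-fold (Cyp2c37) and 12.2-fold (Gstm3). The genes whose log2 ratio was closest to that of Cyp2b10 were Cyp2c55, Gstm3 and the gene model Gm14430, within 0.52. Those closest to Cyp2a5 were the carboxylesterase Ces2c, the sulfotransferase Sult2a1 and the exporter Abcc4, within 0.37. This likeness rests on 1 ratio per gene.

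P450 enzymes need electrons and heme. Por was at 384 CPM without AAOT and 491 CPM with it, and Alas1, which encodes the first enzyme of the heme pathway, at 190 CPM and 380 CPM, 2.003-fold (1.92 to 2.09), which after the added constant did not reach the 2-fold limit. Of 13 genes for electron supply and heme above the floor 0 passed 2-fold, 9 were above 0, 4 below it and the median log2 ratio was 0.22. The lowest, the heme synthesis gene Cpox, was 1.34-fold lower (1.28 to 1.41). Of 15 regulators known for Cyp2a5, 1 was at least 2-fold higher, where 0.773% of all 7761 genes were. This was the coactivator gene Ppargc1a, with 152 reads without AAOT and 298 with it, 2.18-fold (1.78 to 2.66). At 8.19 CPM without AAOT and 17.8 CPM with it, Ppargc1a reached the floor only through the AAOT pool. The other 14 lay within 2-fold, the lowest being Nfix at 1.35-fold lower (1.29 to 1.42), and the list median was 0.01. Nfe2l2, which encodes NRF2, was at 67.0 CPM without AAOT and 73.6 CPM with it. Among 8 classical NRF2 targets that reached the floor, Gstm1, at 2.96-fold (2.92 to 3.002), was the only 1 past 2-fold, and the median was 0.32. Nqo1 fell just short of that limit, at 1.99-fold (1.62 to 2.46). Of the 8 genes, 7 lay above 0 and 1 below. Under the floor, Gsta1 had 7 reads without AAOT and 69 with it, and Slc7a11 had 25 and 26. The lowest was Gclm, at 1.17-fold lower (1.12 to 1.22). Of this list's 10 genes 3 also stand in another list, Gstm1 among them.

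**Figure D5:**
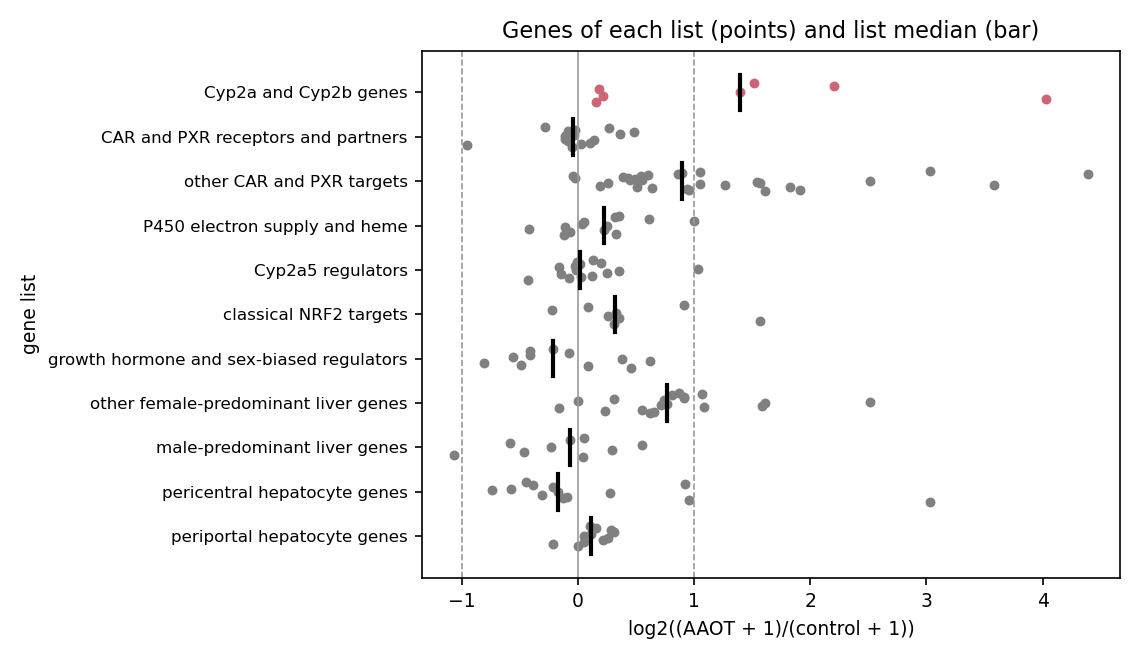
Log2 ratio of AAOT to control pool after adding 1 CPM for the 7 Cyp2a and Cyp2b genes (red) and for the genes of each list with a mean of at least 10 CPM (grey points), with black bars at the medians and dashed lines at 2-fold. The 7 genes split into 3 near 0 and 4 above 1, with a median of 1.40, and the other CAR and PXR targets have a median of 0.89.

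Cyp2a4, at 2.86-fold, stood apart from the other members known as female-predominant, Cyp2b9 and Cyp2b13, at 1.16-fold and 1.12-fold. Its value is uncertain to the extent that reads were split with Cyp2a5, in which 36.1% of its 50-base stretches also occur. Among 19 other female-predominant genes that reached the floor 17 lay above 0 and the median log2 ratio was 0.77. Here 5 passed 2-fold upwards and 0 downwards, where 0.773% and 0.425% of all 7761 genes did. Among the 5 were Sult2a1, at 5.97-fold (5.34 to 6.68), Prom1, at 3.25-fold (2.69 to 3.96), Sult2a2, at 3.11-fold (2.84 to 3.41), and Nipal1, at 2.22-fold (1.88 to 2.64). The lowest was Abcd2, at 1.12-fold lower (1.05 to 1.21). Of this list's 21 genes 2 also stand in another list, Sult2a1 among the CAR and PXR targets and Cux2 among the regulators below. Among 9 male-predominant genes that reached the floor, the serpin gene Serpina3k was the only 1 past 2-fold, at 2.10-fold lower (2.08 to 2.12), with Mup20 highest at 1.49-fold (1.30 to 1.73) and a median of -0.07. Among 11 regulators of sex-biased expression 0 passed 2-fold and the median was -0.21. Bcl6, a repressor with male-predominant expression, was at 39.3 CPM without AAOT and 22.0 CPM with it, 1.79-fold lower (1.57 to 2.03), and Cux2, a female-predominant regulator, at 36.6 CPM and 56.6 CPM, 1.55-fold higher (1.40 to 1.71).

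CYP2A5 and CYP2B enzymes are found mainly in hepatocytes around the central vein, so genes of both ends of the lobule were set beside the members. Of 13 pericentral genes Cyp2c29, at 8.20-fold (8.09 to 8.31), was the only 1 past 2-fold, 9 were below 0 and the median log2 ratio was -0.17. The lowest was Lgr5, at 1.75-fold lower (1.42 to 2.18). Of 11 periportal genes 0 passed 2-fold, 10 were above 0 and the median was 0.12, with Gls2 highest, at 1.24-fold (1.196 to 1.29), and Ctsc lowest, at 1.17-fold lower (1.09 to 1.24). Of the pericentral list 2 genes, Cyp2c29 and Aldh1a1, also stand in the list of CAR and PXR targets.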

How the data were processed

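The values are CPM in 1 deposited table by gene symbol, whose 2 columns were matched to the samples through the codes in their titles. Trimmomatic 0.38, Bowtie2, RSEM, edgeR and the build mm10 stand in the submitters' processing notes without their roles, and no annotation version is named in the sources used here. RNA came from column kits, ribosomal RNA was depleted and libraries were directional, per the labels' protocols. All values (100%) were whole multiples of 1 step per column within a relative tolerance of 1e-06, which gave back reads. Columns summed to 1012463 and 987690 CPM, so a scaling factor per library is included. With 1 library per group no count model could be fitted.

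Ratios are plain ratios of CPM with Clopper-Pearson intervals conditional on the sum of both read counts, treating reads as independent. Counts of genes past 2-fold use log2((AAOT + 1)/(control + 1)), which understates changes of low genes, and a mean of at least 10 CPM. Of the list genes counted, Cyp2c55, Prom1 and Ppargc1a reached that mean only through the AAOT pool, being below 10 CPM in the control pool. Positions are RefSeq on GRCm38. Transcripts, coding sequences and shared stretches (same strand) come from GENCODE M21, and identities from global alignment. The text names the 7 members and the listed genes between and next to them. For lists other than cell type markers, the text names members past 2-fold, the highest and the lowest. It also names the 3 genes closest in ratio to Cyp2b10 and Cyp2a5. Outside that rule stand the values of the receptors, Por, Nfe2l2, Nqo1, Gsta1, Slc7a11, Alb and Hbb-bs. The values of 1 list gene that passed 2-fold are not reported here. The members and the 21 lists (10 of them cell type markers) were chosen with earlier results of these data known. For 2 list genes the table held another symbol (Gnb2l1 for Rack1, Trf for Tf). Steps were tested on simulated reads. The tools were Python 3.11.15 with Biopython 1.88, numpy 2.4.6, scipy 1.17.1, pandas 2.3.3 and matplotlib 3.10.9.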

Additional observations from a re-analysis of the deposited data

How the results depend on the processing

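Scaling the columns to the same total, to a median ratio of 1, to equal upper quartiles or to equal totals without the 20 most abundant genes left all 28 member ratios (7 genes, 4 scalings) within their counting intervals. With the same column total the Cyp2a sum was 2.76-fold and the Cyp2b sum 1.71-fold, just above their counting intervals; under the other 3 scalings both stayed inside. The number of members at least 2-fold higher was 4 with added constants of 0.1 and 5 CPM, with a floor of 1 CPM or none, at a size of 1.5-fold and under the 4 scalings, and 3 with a floor of 50 CPM, which Cyp2a22 does not reach. At a size of 4-fold it was 2, Cyp2b10 and Cyp2a5, because that limit is stricter. No member was lower under any of these 11 settings. Over all genes the 60 higher and 33 lower became 161 and 108 at 1.5-fold and 8 and 6 at 4-fold. Lowering the floor to 1 CPM gave 90 and 55, removing it 94 and 60, and raising it to 50 CPM 37 and 15. The use of the longest transcript of any kind as a length was chosen after seeing the data. Depth limits Cyp2b23, Cyp2s1 and, less, Cyp2g1 among the genes of the cluster, and none of the 7 members, whose lowest count was 411 reads. Differences between mice, pools and library preparations cannot be estimated.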
